A study of Gallus gallus with 6 samples.

Results

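Chromatin modifiers and remodelers are the enzymes and subunits that write, remove or read chemical marks on histones and DNA, or that move nucleosomes. The members were taken by gene symbol from the platform annotation: the numbered KDM, KMT, HDAC, SIRT, CHD, SETD, CBX, TET and KAT families, every SMARC gene, and DNMT1, DNMT3A, EZH2, EED, SUZ12, EP300 and CREBBP. The array carried 82 such genes of the 13050 with a single gene name, on 213 of its 37690 probe sets. The rule uses gene symbols and no measured value, though it was written with earlier results of these data known. After weakly measured probe sets were left out, 77 of the 82 genes and 164 of the 213 probe sets were tested.

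The study placed lateral head mesoderm of chick embryos at stage HH6 into the area opaca, the rim of the blastoderm outside the embryo proper, of host embryos at stage HH4-. After 12 hours the mesoderm was taken off again, and the epiblast that had lain under it was the induced sample. Area opaca from the opposite side, with no graft, was the control. Each group had 3 samples, labelled as biological repeats, with 1 Affymetrix array each. Neither genotype nor strain is given for the hosts or donors, and how many embryos were pooled is not stated. The controls are labelled as area opaca rather than as its epiblast alone, and the 2 groups may differ in the layers collected. In such bulk tissue, fewer cells of a type and less RNA per cell cannot be told apart.

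As background, DNA methyltransferases and the TET oxygenases set and remove methyl groups on cytosine. Polycomb proteins and deacetylases are tied to repression, acetyltransferases and the KMT enzymes of promoters to active genes, and SMARC and CHD proteins use ATP to slide or evict nucleosomes. Some of these genes are known from human syndromes in which structures of placode or neural crest origin are affected, among them CHD7 in CHARGE syndrome and KMT2D and KDM6A in Kabuki syndrome. The comparison asks which of the genes differ in transcript level between epiblast induced toward sensory placodes and area opaca of the other side.

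Differences of the chromatin genes between induced and control tissue were small, and of about the size found over all genes. Their median absolute log2 fold change was 0.19, against 0.16 for all genes. None of the 77 genes passed at a limma adjusted p under 0.05, where 0.375% of all 10138 genes tested did. None of the 164 probe sets did, where 0.0973% of all 22614 did. At such low shares, the lack of any among the members does not set them apart. The lowest adjusted p among the members was 0.179, that of SETD9. Log2 fold changes, induced minus control, ran from -0.57 for HDAC4 to 0.95 for DNMT3A. No member was past 1 in either direction, and this was rare among all genes too (184 of 10138). Past 0.5 were 6 of the 77 (7.79%, against 9.82% of all genes). Fold changes here are on the log2(signal + 16) scale, on which the change of weak genes is understated. At or above 16 units on every array were 64 of the 77 members and 6964 of the 10138 genes. The members were thus measured more brightly than the genes they are set beside.

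For 70 of the 77 genes the 95% interval of limma lay wholly between -1 and 1 on the log2(signal + 16) scale (90.9%, against 89.2% of all genes). Of these 70, 57 were at or above 16 units of signal on every array, and in the weaker ones the interval does not bound the change of the signal itself. For 22 genes it lay between -0.5 and 0.5. The 7 genes whose interval reached past 1 were SETD9, DNMT3A, HDAC4, SMARCA2, SMARCAD1, TET2 and KMT5B. Intervals that left out 0 were those of the 7 genes with an unadjusted limma p under 0.05, named below.

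**Figure D1:**
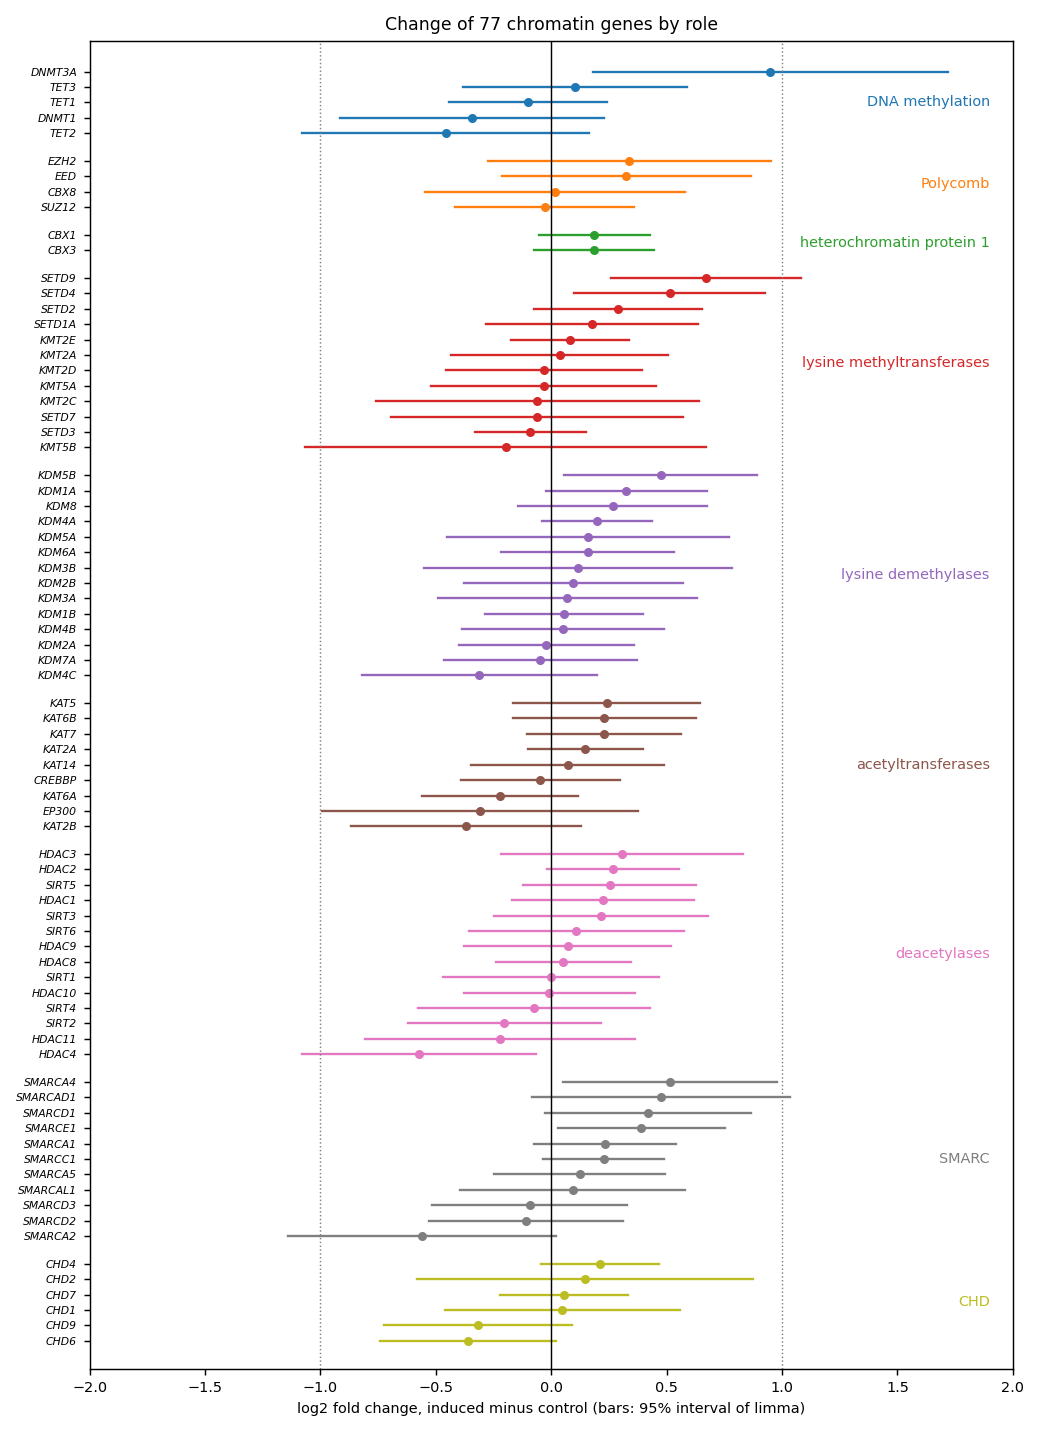
Log2 fold change (induced minus control, log2(signal + 16) scale, x axis) of the 77 tested chromatin genes, grouped by role, with the 95% interval of limma as a bar and dotted lines at -1 and 1. Most intervals cover 0 and stay within the dotted lines, and those of DNMT3A, SETD9 and HDAC4 lie to one side of 0 and reach past a line.

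Before adjustment, 6 member genes were higher at p under 0.05 (7.79% of the 77, against 5.61% of all genes) and 1 was lower (1.3%, against 6.02%). These 7 were SETD9, SETD4, DNMT3A, KDM5B, SMARCA4 and SMARCE1 on the higher side and HDAC4 on the lower. With 9.09% in all, the members held no more of these than the 11.6% of all genes. The 3 induced arrays lay apart from the 3 control arrays in 15 members (19.5%, against 16.5% of all genes), above them in 12 (the background is 9.11%) and below them in 3 (7.42%). Induced values were above the controls on average in 49 of the 77 genes (63.6%, against 53.2% of all genes), and the median log2 fold change of the members was 0.08, against 0.02 for all genes.

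DNA methylation genes included the member with the largest difference of means. DNMT3A, which methylates cytosine de novo, stood at 7.84, 6.69 and 7.42 in control samples 1 to 3 and at 8.40, 8.80 and 7.61 in induced samples 1 to 3 (log2(signal + 16), as are all levels below). Induced sample 3 lay below control 1, so the groups overlapped, while the other 2 induced samples were above every control. The means were 7.32 ± 0.58 and 8.27 ± 0.61 (SD, n = 3 each), which differ by 0.95 on the log2 scale (SE 0.345, adjusted p of limma 0.326). Probe sets are mentioned here only where they passed the filter on weak signal. The second probe set of DNMT3A gave 0.17, so the 2 probe sets disagreed more than those of any other member.

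DNMT1, which copies methylation after replication, had 5.57, 6.60 and 5.99 in the controls and 5.80, 5.58 and 5.73 in the induced samples. Its controls spread over the whole range of the induced samples and beyond, and the difference of means was -0.34 (SE 0.257, limma adjusted p = 0.686). TET2 read 7.80, 8.90 and 8.34 in the controls against 7.59, 7.83 and 8.24, a difference of -0.46 (SE 0.279, limma adjusted p = 0.596), and its other probe sets gave -0.43 and -0.14. The 3 kept probe sets of TET2, of 5 on the array, were thus on the same side, and the groups overlapped on the one that represents the gene. TET1 had a log2 fold change of -0.10 (95% interval -0.44 to 0.24). TET3 was weak, under 16 units of signal on 5 of the 6 arrays, and its 0.10 says little. DNMT3B, the other de novo methyltransferase and no member by the rule, had 9.75, 9.26 and 9.53 in the controls and 10.11, 10.26 and 9.62 in the induced samples, a difference of 0.49 (SE 0.183, limma adjusted p = 0.343). As in DNMT3A, induced sample 3 was the lowest of the induced samples.

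**Figure D2:**
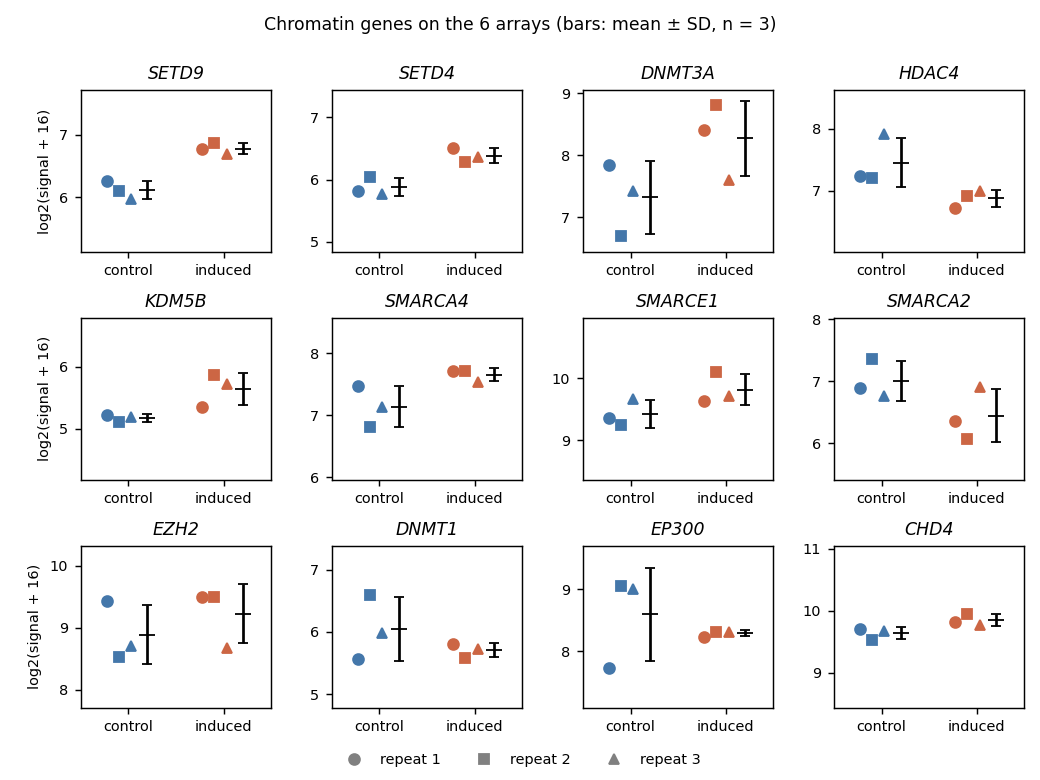
Levels of 12 chromatin genes on the 6 arrays (y axis, log2(signal + 16) after quantile normalization, each panel spanning the same range), control in blue and induced in orange, with the repeat number as the symbol and mean ± SD (n = 3) as a bar. The groups are apart in SETD9, SETD4, HDAC4, KDM5B, SMARCA4 and CHD4, and overlap in the other 6 genes.

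Polycomb repressive complex genes overlapped between the groups in all 4 tested cases, where 16.5% of all genes did not overlap. With so few genes this does not set them apart. EZH2, its histone methyltransferase, read 9.43, 8.53 and 8.71 in the controls and 9.50, 9.50 and 8.68 in the induced samples. Control 1 and induced samples 1 and 2 were high, and the other 3 arrays low. The difference of means was 0.34 (SE 0.275, limma adjusted p = 0.722), and the other kept probe set gave 0.72. EED, which binds the methyl mark that EZH2 sets, had a difference of 0.33 (SE 0.242) and SUZ12, the third core subunit, one of -0.03 (95% interval -0.42 to 0.36). CBX8, a reader of the mark, had 0.02 (SE 0.253). CBX2 and CBX7 were too weak to test, with at most 2 and 10.8 units on any array. Heterochromatin protein 1 genes, whose products bind methylated histones of silent chromatin, were close to each other: CBX1 differed by 0.19 (SE 0.108) and CBX3 by 0.18 (SE 0.117) on the log2 scale, with adjusted p of 0.575 and 0.615 by limma.

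Among the 12 lysine methyltransferases, SETD9 had the lowest p of all members. SETD9, a protein named for its SET domain, read 6.26, 6.10 and 5.97 in the controls and 6.78, 6.87 and 6.69 in the induced samples. Every induced value was above every control. The means were 6.11 ± 0.15 and 6.78 ± 0.09 (SD, n = 3 each), a difference of 0.67 (SE 0.185, limma adjusted p = 0.179). Its other 2 probe sets gave 0.51 and 0.52, so all 3 were on the same side. SETD4, another SET domain protein, read 5.82, 6.04 and 5.76 against 6.51, 6.29 and 6.36, again without overlap, and had a difference of 0.51 (SE 0.185, limma adjusted p = 0.324).

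SETD2, which methylates histones in transcribed gene bodies, read 10.53, 10.03 and 10.49 in the controls and 10.76, 10.82 and 10.33 in the induced samples. Its 3 kept probe sets gave 0.29, 0.43 and 0.35, all on the same side, and the groups overlapped (limma adjusted p = 0.561). SETD1A, a promoter methyltransferase, had 0.18 (SE 0.206). KMT2A, KMT2C, KMT2D and KMT2E, of the MLL family, had log2 fold changes of 0.04, -0.06, -0.03 and 0.08. KMT2D was under 16 units on all 6 arrays, so that its level was close to the floor of the measurement. A further probe set of KMT2A stood at -0.40 against 0.04 for the one that represents the gene.

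Lysine demethylases were above the controls in 11 of 14 genes (78.6%, against 53.2% of all genes), with a median difference of 0.11. In 4 of the 14 the groups did not overlap (28.6%, against 16.5% of all genes). With so few genes these shares do not set them apart. KDM5B, which removes the methyl mark of active promoters, read 5.23, 5.10 and 5.18 in the controls and 5.36, 5.86 and 5.72 in the induced samples. The controls were tight and all induced values were above them, by 0.47 on average (SE 0.189, limma adjusted p = 0.37). Its other 2 probe sets gave 0.25 and -0.13, and the one that represents the gene is of a kind that can match several transcripts. Without probe sets of that kind KDM5B had -0.13, the opposite sign. The probe sets that represent SETD9, SETD4 and SMARCE1 are of that kind too. SETD4, HDAC4 and SMARCA4 have 1 probe set each, so no other probe set can be set beside their values.

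KDM1A, the flavin-dependent demethylase of the CoREST complex, had 0.33 (SE 0.156, limma adjusted p = 0.463), against 0.01 and -0.11 in its other probe sets. KDM4A read 9.85, 10.02 and 10.11 in the controls and 10.17, 10.25 and 10.14 in the induced samples, apart by a narrow margin, with a difference of 0.20 (SE 0.107) and -0.19 in its other probe set. KDM8 had 0.27 (SE 0.184), again apart by a narrow margin (5.60 in control 1, 5.61 in induced 1). KDM6A, which removes the Polycomb mark, read 5.39, 5.45 and 5.30 against 5.45, 5.64 and 5.52, a difference of 0.16 (SE 0.169), with -0.17 and -0.12 in its other 2 kept probe sets. KDM6A and KDM5B thus show no overlap on the probe set that stands for the gene and values of the opposite sign on others. In KDM6A the groups nearly touched, at 5.446 in control 2 and 5.448 in induced 1.

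Acetyltransferases were above the controls in 5 of 9 genes (55.6%, against 53.2% of all genes), and none had an unadjusted limma p under 0.05. Of all genes 11.6% had such a p, and 9 genes are too few to be set apart from that share. KAT2B had the lowest p, with 6.43, 6.98 and 6.68 in the controls and 6.32, 6.06 and 6.60 in the induced samples, a difference of -0.37 (SE 0.223, limma adjusted p = 0.593). Its paralog KAT2A, the catalytic subunit of the SAGA complex, had 0.15 (SE 0.111). KAT7 and KAT6A, of the MYST family, had 0.23 (SE 0.15) and -0.22 (SE 0.151). EP300, a co-activator that acetylates enhancer nucleosomes, read 7.74, 9.06 and 9.01 in the controls and 8.24, 8.32 and 8.32 in the induced samples. Its induced values were nearly equal and lay between control 1 and the other 2 controls, and the difference of means was -0.31 (SE 0.308, limma adjusted p = 0.792). Single controls moved this value: it was -0.74 without control 1 (limma adjusted p = 0.0832, the lowest over its alternatives), -0.08 without control 2 and -0.10 without control 3. The 2 arrays of repeat 1 differed by 0.50 and the other 4 by -0.71. CREBBP, the paralog of EP300, had -0.05 (SE 0.155) and was under 16 units on 4 arrays.

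Of the 14 deacetylases tested, HDAC4 was the only one with an unadjusted limma p under 0.05 (7.14%, against 11.6% of all genes). HDAC4, a class IIa deacetylase that binds MEF2 factors, read 7.24, 7.21 and 7.91 in the controls and 6.73, 6.92 and 7.00 in the induced samples. All induced values were below all controls, and control 3 stood highest. The means were 7.46 ± 0.40 and 6.88 ± 0.14 (SD, n = 3 each), and the induced mean was off by -0.57 (SE 0.228, limma adjusted p = 0.37). Of the class I enzymes, HDAC1 and HDAC2, which work in nuclear co-repressor complexes, had 0.22 (SE 0.177) and 0.27 (SE 0.128), and HDAC8 had 0.05 (SE 0.131), all with overlapping groups. HDAC3, the deacetylase of the NCoR complex, had 0.31 (SE 0.236), but this difference lay in repeat 1: it was 0.92 between the arrays of that repeat and 0.06 and -0.06 in the other 2. The other HDAC3 probe set gave -0.06.

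The sirtuins, deacylases that depend on NAD, ran from -0.20 for SIRT2 to 0.25 for SIRT5. SIRT5, a mitochondrial enzyme, read 5.38, 5.42 and 5.20 in the controls and 5.57, 5.56 and 5.63 in the induced samples. The groups were apart, with SDs of 0.12 and 0.04 (n = 3 each), and the difference had an SE of 0.169 (limma adjusted p = 0.64). This SE is the moderated one of limma, which also draws on the spread of other genes. HDAC7 was too weak to test, with at most 15.3 units on an array.

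SMARC genes code for the ATPases and subunits of SWI/SNF and related remodelers. They were above the controls in 8 of 11 genes (72.7%, against 53.2% of all genes), with a median of 0.23. Of the 11, 2 had an unadjusted limma p under 0.05 (18.2%, against 11.6% of all genes). With so few genes these shares do not set them apart. SMARCA4, an ATPase of SWI/SNF, read 7.47, 6.81 and 7.13 in the controls and 7.72, 7.70 and 7.53 in the induced samples, all above the controls. The means were 7.14 ± 0.33 and 7.65 ± 0.10 (SD, n = 3 each), a difference of 0.52 (SE 0.208, limma adjusted p = 0.373). SMARCE1, a subunit that binds DNA, had 9.35, 9.24 and 9.67 against 9.63, 10.10 and 9.72, a difference of 0.39 (SE 0.162, limma adjusted p = 0.384), with a slight overlap and 0.23 in its other probe set.

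SMARCA2, the paralog that takes the place of SMARCA4 in some complexes, went the other way. It read 6.89, 7.36 and 6.76 in the controls and 6.35, 6.07 and 6.91 in the induced samples, where the third lay within the controls. The difference of means was -0.56 (SE 0.26, limma adjusted p = 0.45). The core subunit SMARCC1 had 0.23 (SE 0.118) and the ISWI ATPase SMARCA1 0.23 (SE 0.138), both without overlap. SMARCD1 had 0.42 (SE 0.2) but was under 16 units on all 6 arrays. SMARCAD1, a remodeler of silent chromatin, had 0.48 (SE 0.25). SMARCB1, another core subunit, was too weak to test, with at most 9.7 units.

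CHD remodelers did not overlap in 3 of 6 genes (50%, against 16.5% of all genes), 1 higher and 2 lower (9.11% and 7.42% of all genes). None of the 6 had an unadjusted limma p under 0.05, against 11.6% of all genes. With so few genes neither share sets them apart. CHD4, the ATPase of the NuRD complex, read 9.71, 9.53 and 9.67 in the controls and 9.82, 9.96 and 9.77 in the induced samples, a difference of 0.21 (SE 0.115, limma adjusted p = 0.542). Its 3 other probe sets gave 0.19, 0.17 and 0.38, all on the same side. CHD9 read 8.54, 8.11 and 8.26 against 8.09, 7.77 and 8.10, a difference of -0.32 (SE 0.183), and its 4 kept probe sets were all below 0. The groups of CHD9 nearly touched, at 8.11 in control 2 and 8.10 in induced 3. CHD6 had -0.36 (SE 0.171) at signals under 16 units on 4 arrays, and its other kept probe set gave -0.36 (SE 0.204) with 5 arrays under 16 units. CHD7 was strongly measured and close to equal: 10.04, 10.36 and 10.24 in the controls and 10.07, 10.39 and 10.34 in the induced samples. Its log2 fold change was 0.05 with a 95% interval of -0.22 to 0.33, and its 7 probe sets ran from -0.28 to 0.17. CHD5 was too weak to test, with at most 10.7 units.

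Several related genes stood on opposite sides of 0, which can be read within each array as the difference of the 2 genes. Of 21 pairs of related members, written down after values had been seen and so given without a test, 10 had opposite signs and 4 showed no overlap between groups. Shares among other gene pairs were not computed, so neither count is shown to be particular to related genes. Of all single genes, 16.5% showed no overlap. The difference SMARCA4 minus SMARCA2, relative to its mean in the controls, was 0.45, -0.69 and 0.23 in the controls and 1.23, 1.50 and 0.49 in the induced samples. Its mean in the induced samples was 1.07 ± 0.52 (SD, n = 3), and induced 3 cleared control 1 by a narrow margin. HDAC4 minus HDAC9 stood at -0.65, SMARCD1 minus SMARCD2 at 0.53 and KDM1A minus KDM1B at 0.27 on the same measure, also apart. SMARCD1 and KDM1B were under 16 units on all arrays. SMARCA4, SMARCA2, HDAC4 and HDAC9 each had only 1 kept probe set. DNMT3A minus DNMT1 was larger in mean, at 1.29, but its controls ran from -1.17 to 1.00 and overlapped the induced samples at 0.61 to 1.95. HDAC1 minus HDAC2 and CBX1 minus CBX3 were at -0.04 and 0.00.

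**Figure D3:**
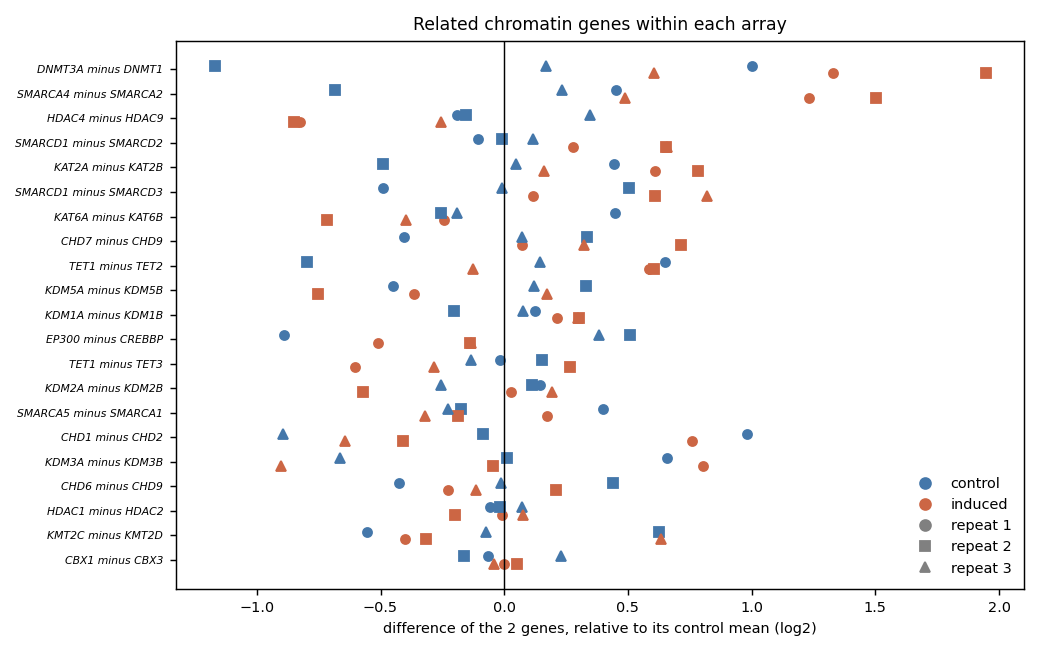
Difference of 2 related genes within each array, relative to its mean over the controls (x axis, log2), for 21 pairs, control in blue and induced in orange, with the repeat number as the symbol. The groups are apart for SMARCA4 minus SMARCA2, HDAC4 minus HDAC9, SMARCD1 minus SMARCD2 and KDM1A minus KDM1B, and overlap in the other 17 pairs.

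Probe sets of one gene often disagreed about direction, which limits what a single small fold change can carry. Of the 45 members with several kept probe sets, all probe sets had the same sign in 16. The gap between the lowest and highest was 0.23 at the median and above 1 in none. The 16 included SETD9, SETD2, CHD4, SMARCE1, TET2, CHD9, CHD6 and EZH2. Opposite signs were found in KDM5B, KDM4C, KAT2B, EP300 and KDM6A, among others. Of the 164 kept probe sets, 9 were higher and 2 lower at an unadjusted limma p under 0.05 (6.71% together, against 9.76% of all kept probe sets), and SETD9 accounted for 3 of the 9.

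**Figure D4:**
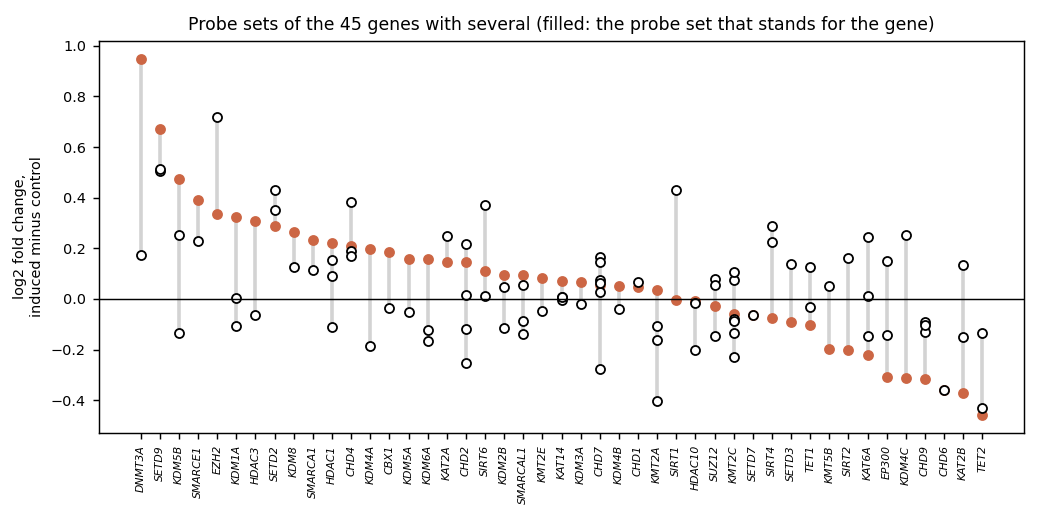
Log2 fold change (induced minus control, y axis) of each kept probe set of the 45 chromatin genes that have several, ordered by the probe set that stands for the gene (filled), with a grey line over the range. The 3 probe sets of SETD9 lie together above 0.5, while those of KDM5B, KDM1A and SIRT1 spread across or down to 0.

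The 2 arrays of repeat 1 were the brightest, with median signals of 17.70 and 18.35 units against 7.50 to 9.60 on the other 4. In 24 members both arrays of repeat 1 lay outside the range of the other 4, above it in 11 and below it in 13 (31.2%, against 26.6% of all genes). EP300, KMT5B, KMT2C, KDM3B, TET2 and CHD7 were among the lower ones, and KMT2A, KAT2A, SMARCA5 and CHD1 among the higher. KMT5B showed it most plainly, at 5.81 and 5.73 in control 1 and induced 1 and at 6.65 to 7.09 elsewhere. The 2 arrays of repeat 2 lay apart in 5 members (6.49%, against 9.14% of all genes) and those of repeat 3 in 8 (10.4%, against 12.7%). Brightness, probe set and repeat cannot be told apart here. The median difference over the 77 genes was 0.08 between the 2 brightest arrays and 0.11 among the other 4. The sign was the same in both for 54 genes, among them all 7 with an unadjusted p under 0.05, a direction that non-overlap had fixed beforehand in most of them. All 7 were picked on these same arrays, so their shared sign is no separate evidence. The share of all genes with the same sign was not computed. SMARCA4 had 0.25 between the brightest arrays and 0.65 among the rest, DNMT3A 0.56 and 1.14, SETD9 0.52 and 0.75, and HDAC4 -0.51 and -0.60.

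Among the induced samples, the second was the highest in 35 of the 77 members (45.5%, against 31.4% of all genes), and the third was the lowest in 33 (42.9%, close to the 39.2% of all genes). The mean of the 4 preplacodal genes tested, of 5 on the array, was also highest in the second and lowest in the third. It was 2.13, 2.35 and 0.99 above the control mean in induced samples 1 to 3. Whether the chromatin levels go with those of the preplacodal genes was not tested. EYA2, which codes for a co-activator active in placode precursors, rose from 5.75, 5.72 and 6.29 to 8.43, 8.96 and 7.74 (a difference of 2.46, limma adjusted p = 0.0115). The 18 cell cycle genes tested were on average 0.34, 0.53 and 0.18 above the control mean in induced samples 1 to 3, with 17 of 18 higher (94.4%, against 53.2% of all genes). None was past the adjusted threshold of limma, and 5 were higher at an unadjusted p under 0.05 (27.8%, against 5.61% of all genes). Their summed signal, after quantile normalization, ran from 9048 to 10321 units across controls and from 11117 to 13075 units across induced samples. The SMARC genes averaged 0.14, 0.21 and 0.11 on the same scale. The part of proliferation in the chromatin values was not tested.

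Markers of blood and endothelium and of yolk sac endoderm and hypoblast moved with the groups far more than the chromatin genes did. Epithelial markers shifted little as a list, with a median log2 fold change of 0.08, as in the members, but differed in both directions. GATA3 had 0.89 and KRT7 -0.32, each without overlap (limma adjusted p of 0.204 and 0.261). At an unadjusted limma p under 0.05 were 20% of this list, against 11.6% of all genes. Blood and endothelium markers were lower in 16 of 18, and TAL1, KDR and LMO2 fell (limma adjusted p of 0.0112, 0.0112 and 0.0162). Of these 18 markers, 13 were lower at an unadjusted limma p under 0.05 (72.2%, against 6.02% of all genes). Their signals summed to between 4017 and 4486 units per control and between 989 and 2389 per induced sample. These sums, and those below, are of signal after quantile normalization, not of deposited signal. TAL1, a factor of blood and endothelial precursors, was at 4.98, 4.43 and 4.89 in the induced samples, close to the filter level of 4.50. Markers of yolk sac endoderm and hypoblast were lower in 16 of 18, and none passed by limma. Of these, 12 were lower at an unadjusted limma p under 0.05 (66.7%, against 6.02% of all genes). The list had sums between 4494 and 10145 units per control and between 2708 and 3368 per induced sample. Markers of the grafted mesoderm were higher in 7 of 11 (63.6%, against 53.2% of all genes), with sums of 329 to 1537 and 1607 to 2492. ISL1, also a placode gene, and NKX2-5 rose. The sums lean on ISL1, at 6.91, 5.94 and 6.87 in the controls and 8.98, 9.50 and 9.60 in the induced samples. The median of the list, relative to the control mean, was 0.28, -0.33 and 0.20 in controls 1 to 3. In induced samples 1 to 3 it was 0.31, 0.73 and 0.20, so the groups overlapped on it. Epithelial markers of the epiblast, 10 tested, summed to between 11752 and 13676 units per control and between 12708 and 13156 per induced sample, so they were present in both groups. The part of these other tissues in the chromatin values was not tested.

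**Figure D5:**
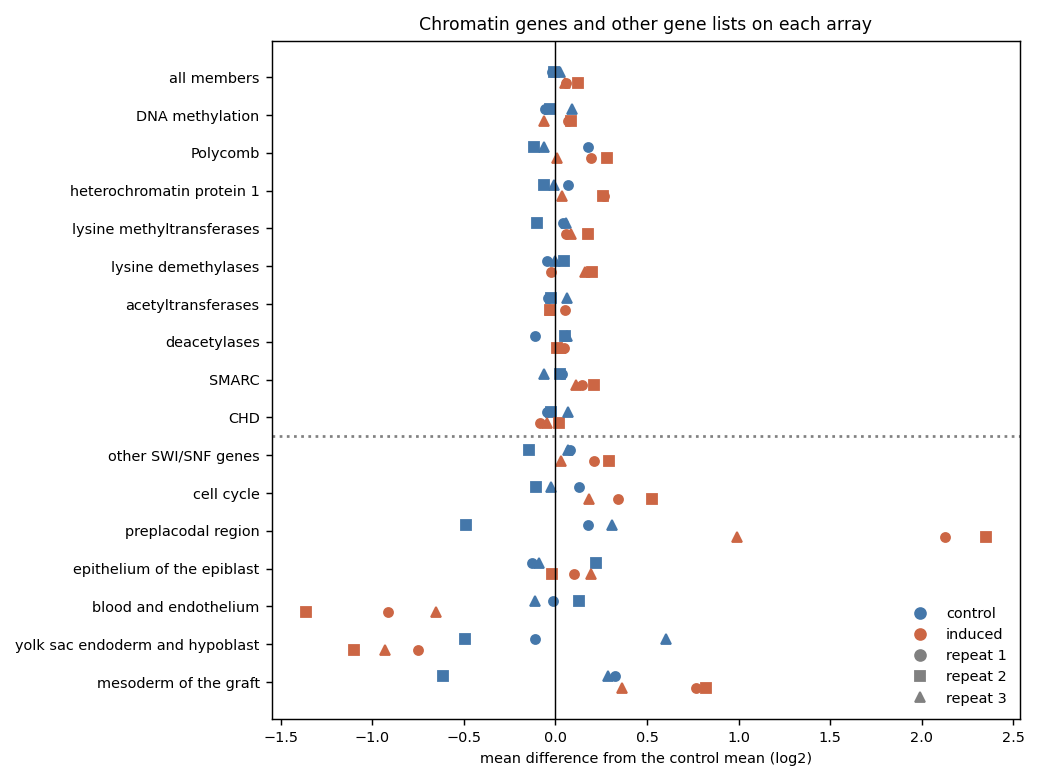
Mean difference from the control mean (x axis, log2) of all chromatin genes, of their role groups and, under the dotted line, of other gene lists on each of the 6 arrays, control in blue and induced in orange, with the repeat number as the symbol. The chromatin groups stay within 0.3 of the control mean, while preplacodal genes reach 2.35 and blood and endothelium genes -1.36.

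Other chromatin genes that the symbol rule leaves out were like the members in direction, but their differences were smaller. A list of their complex partners and related enzymes had 153 names, of which 112 were on the array and 100 were tested, and 0 passed by limma at an adjusted p under 0.05. At an unadjusted p under 0.05, 7 were higher (7%, against 5.61% of all genes) and 1 lower (1%, against 6.02%). Above the controls lay 71 of 100 (71%, against 53.2% of all genes), with a median of 0.07. The groups did not overlap in 8 (8%, against 19.5% of the members and 16.5% of all genes). No gene was past 0.5 in either direction, where 7.79% of the members and 9.82% of all genes were. The other SWI/SNF genes were above the controls in 12 of 13 (92.3%, against 53.2% of all genes), with a median of 0.14. BRD9 and BCL7A, subunits of these complexes, had 0.44 (SE 0.164, limma adjusted p = 0.337) and 0.42 (SE 0.164, limma adjusted p = 0.364), and BRD9 did not overlap. On the arrays these SWI/SNF genes averaged 0.21, 0.29 and 0.03 in induced samples 1 to 3 and 0.08, -0.15 and 0.07 in the controls, so that induced sample 3 lay within the controls.

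In the other lists the lowest p values were likewise above the adjusted threshold of limma. RCOR3 of the CoREST family and SIN3B, a co-repressor scaffold, both had 0.48 (SE 0.15 and 0.191). MTA3 and MBD3, of NuRD, had 0.38 and 0.34. ASH1L, a histone methyltransferase, had -0.43 (SE 0.183), and SUV39H2, which methylates heterochromatin, 0.44 (SE 0.234). RBBP4, a histone chaperone, and ASXL1, a Polycomb-related protein, had 0.16 and 0.33. Besides DNMT3B, UHRF2 had 0.47 in the DNA methylation list. That list was above the controls in all 7 tested genes (100%, against 53.2% of all genes), with a median of 0.09.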

How the data were processed

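Per the labels' protocols, biotin-labelled material from total RNA was put on Affymetrix arrays. The deposited table holds linear intensity values of 37690 probe sets on 6 arrays, and the submitters' processing notes name MAS5, with its version and scaling not given in the sources used here. Array medians differed, so log2(signal + 16) values were quantile normalized, which removes a shift common to most genes, and probe sets with a mean under the 40th percentile (4.50) were left out. Groups were compared across all genes and all probe sets with limma 3.58.1 in R 4.3.3 (lmFit, eBayes with trend, group as the only term, two-sided, Benjamini-Hochberg, threshold 0.05). The SEs, intervals and p-values of limma are moderated, drawing the variance of each gene toward that of genes of like level. They rest on the spread among these arrays, which may be partly technical, and not on the SDs of a gene alone. With 3 against 3 arrays, an exact permutation test of 1 gene cannot go below p = 0.1. The code was tested on simulated data.

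For each gene the brightest probe set by mean over the 6 arrays was taken. Genes were named from GEO's platform annotation, updated by Entrez number through RefSeq genes of GRCg7b. Of the probe sets, 27166 had 1 symbol, 177 several and 10347 none. Of the members' 213 probe sets, 72 were s_at or x_at, the kinds meant above as able to match several transcripts. A further 11 were a_at, among them those that represent DNMT3A and HDAC4. These were not counted with the 72, and the alternative without s_at and x_at kept them. Members and lists were chosen with earlier results of these data known. Named genes are, per role, the 4 lowest p, plus 16 fixed genes and, per other list, the 2 lowest p. Others named besides them were chosen after their values were seen. Whether arrays of the same repeat number share hosts is not stated. Same-numbered arrays correlated in their deviations from the group means at 0.55, -0.15 and 0.07, and differently numbered ones at -0.45 to 0.40. These values cannot settle whether the numbers are pairs. The main fit did not take them as pairs, and fits with the number as a block are among the alternatives.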

Additional observations from a re-analysis of the deposited data

How the results depend on the processing

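No member gene, member probe set or other chromatin gene passed the adjusted threshold under any of the 19 alternatives run, at which 1 to 360 of all genes did. The median of the members stayed above 0, from 0.03 to 0.14. Members above the controls, 49 of 77 in the main fit, were 41 of 76 with no normalization. They were 43 of 76 with median centring. The median of all genes was -0.04 and -0.02 in these 2 settings. The count at an unadjusted limma p under 0.05 was 6 higher and 1 lower (7.79% and 1.3%, against 5.61% and 6.02% of all genes). The share of all genes, given in brackets below, shifted with the setting too. Higher genes numbered 0 with median centring (2.34%), 0 with no normalization between arrays (0.796%) and 3 without s_at and x_at probe sets (5.41%). When single arrays were left out they numbered 2 to 8 (3.18% to 6.95%), the lowest without induced 2. With the repeat number as a replicate block they numbered 9 (7.19%), and 3 with that block and no normalization (3.51%). Lower genes numbered 0 with median centring (3.96%) or no normalization (1.54%). There were 2 with a filter at the 20th percentile (5.75%) or with the block and no normalization (7.1%). With the mean of the kept probe sets (6.03%) or with both arrays of repeat 1 left out (5.59%) there were 3. When single arrays were left out, lower genes numbered 0 to 5 (3.12% to 6.87%), the highest without control 1. Of 41 named members, 10 changed sign in 22 of 766 values, none of them called. CHD7 had -0.06 with no normalization, with or without the block, and -0.04 with median centring. KDM6A had -0.04 with the mean of probe sets and KDM5B -0.13 without s_at and x_at probe sets. Without repeat 1, SUZ12 had 0.09, KMT2D 0.08, CBX8 -0.08 and HDAC3 -1.10e-04. With single arrays left out, CHD7 ran from -0.03 to 0.15, CHD2 from -0.15 to 0.49, SUZ12 from -0.13 to 0.07, CBX8 from -0.21 to 0.25, TET3 from -0.10 to 0.25, KMT2D from -0.20 to 0.07, KDM6A from -0.13 to 0.20 and CREBBP from -0.13 to 0.0046. The causes were not tested. Members near 16 units, among them KMT2D, TET3 and SMARCD1, are limited by signal over background.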
